A study of Mus musculus with 39 samples.

Results

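The 9 genes described here carry the insulin signal or bind insulin-like growth factors (IGFs), and were taken by symbol from count tables that share 45706 gene IDs. They are the insulin receptor gene Insr, the receptor substrate genes Irs1 and Irs2, the PI3K regulatory subunit gene Pik3r1, the kinase genes Akt1 and Akt2, the glucose transporter gene Slc2a4 (GLUT4), and the IGF-binding protein genes Igfbp1 and Igfbp2. RNA-seq was available for 39 libraries from male C57BL/6 mice in 12 groups, which form 6 comparisons of E47-deleted with E47-intact tissue. The Tcf3 gene encodes E47 as one of its splice products, an E-box-binding transcription factor, and the study asked how its loss alters the response to glucocorticoids. Global mutants (E47KO, E47-/-) were compared with wild-type littermates (WT, E47+/+) in untreated liver (6 and 5 libraries), in liver after 3 weeks of corticosterone (Cort) at 100 µg/ml (4 and 4), and, after 3 weeks of dexamethasone (Dex) at 10 µg/ml, in liver (3 and 2), quadriceps muscle (3 and 2) and epididymal fat (WAT, 2 and 2). Dex is a synthetic glucocorticoid, Cort is the natural one of the mouse, and both were given in the drinking water until mice were killed after a fast and a glucose tolerance test. In the acute experiment, mice received Dex at 1 mg/kg by injection 1 h before liver collection. There, Albcre/+;E47fl/fl mice (AlbCre E47KO, 3 libraries) were set against 3 controls without Cre, of which replicate 1 was E47fl/+ and replicates 2 and 3 were E47fl/fl. The albumin promoter drives Cre in hepatocytes, so the other cells of those livers kept E47. Of the Dex-treated mice, 3 gave both a liver and a muscle library. Whether WAT libraries came from the same mice was not checked.

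Insulin binding to its receptor leads to phosphorylation of IRS proteins, recruitment of PI3K and activation of Akt, which moves GLUT4 to the surface of muscle and fat cells and shuts the FoxO factors out of the nucleus. Irs2 and Igfbp1 are FoxO targets in liver and are repressed by insulin, and Igfbp1 is also a known glucocorticoid-responsive gene. Circulating IGFBP1 and IGFBP2 are made largely by the liver and limit the access of IGFs to their receptors.

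Libraries held 15.5 to 54.6 mega-counts on genes, with 15.5 to 18.1 in 1 h Dex livers and 37.8 to 54.6 in Cort livers. The hepatocyte markers summed to at least 80899 CPM (counts scaled to a common library size with TMM factors over all 39 libraries) in every liver library, the muscle fibre markers to at least 151600 CPM in every muscle library and the adipocyte markers to at least 28088 CPM in every WAT library. Muscle WT replicate 2 stood apart, with 201 CPM of hepatocyte markers against 0.990 to 11.8 CPM in the other 4 muscles. Tcf3 counts did not separate the genotypes in any comparison (log2 fold changes between -0.15 and 0.23). Counts per gene do not split E47 from the E12 splice form, so they do not check the labels. The 4 B cell markers, which depend on E47 in the lymphoid lineage, summed to 0.0884 to 0.404 CPM in untreated E47KO livers and to 1.43 to 3.29 CPM in untreated WT livers. The sum was 0.0266 to 0.157 CPM in Cort E47KO livers and 0.269 to 0.349 CPM in Cort WT livers, and 1.32 to 2.04 CPM in AlbCre E47KO livers against 0.927 to 1.26 CPM in their controls. In Dex liver, WAT and muscle it overlapped between genotypes. In bulk tissue, fewer cells of a type and less RNA per cell cannot be told apart.

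RefSeq promoter sequences (GRCm38.p6) were at hand for 7 of the 9 genes, and those of Igfbp1, Igfbp2, Irs2 and Irs1 are shown. They are a selection that does not cover every gene with a difference below, and Pik3r1 is among those not shown. Each is the 250 bases before the RefSeq start site, read on the gene's strand. Capitals mark E-boxes (CANNTG, the consensus the study gave for E47) and the insulin response core TTGTTT, searched on both strands (AAACAA). Whether E47 binds the marked forms, CACGTG among them, was not tested here. The motifs were chosen with these sequences in view, so a match is a description.
Igfbp1: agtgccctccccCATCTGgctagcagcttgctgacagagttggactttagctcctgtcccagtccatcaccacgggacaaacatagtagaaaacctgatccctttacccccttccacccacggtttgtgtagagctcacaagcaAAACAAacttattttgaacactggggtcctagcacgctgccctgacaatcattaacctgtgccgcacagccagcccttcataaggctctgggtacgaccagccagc
Igfbp2: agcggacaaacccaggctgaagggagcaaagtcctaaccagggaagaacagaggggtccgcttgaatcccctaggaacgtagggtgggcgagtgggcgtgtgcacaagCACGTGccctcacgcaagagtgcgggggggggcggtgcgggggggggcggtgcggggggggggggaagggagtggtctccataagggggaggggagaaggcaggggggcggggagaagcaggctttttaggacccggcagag
Irs2: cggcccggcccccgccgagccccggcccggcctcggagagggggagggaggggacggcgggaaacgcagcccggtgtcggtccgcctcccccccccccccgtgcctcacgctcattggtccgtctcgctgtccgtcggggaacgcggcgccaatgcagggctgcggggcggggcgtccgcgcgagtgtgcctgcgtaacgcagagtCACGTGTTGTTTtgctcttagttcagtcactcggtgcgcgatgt
Irs1: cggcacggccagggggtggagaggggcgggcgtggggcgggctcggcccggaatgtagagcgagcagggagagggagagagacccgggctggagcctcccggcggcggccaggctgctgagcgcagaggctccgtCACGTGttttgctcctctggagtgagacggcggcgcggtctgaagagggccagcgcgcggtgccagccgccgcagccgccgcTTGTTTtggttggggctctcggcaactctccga

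In mm10 the genes lie at chr8:3122061-3279617 (Insr), chr1:82233101-82291416 (Irs1), chr8:10984681-11008458 (Irs2), chr11:7197782-7202546 (Igfbp1), chr1:72824503-72852474 (Igfbp2), chr13:101680563-101768217 (Pik3r1), chr12:112653821-112674884 (Akt1), chr7:27591552-27640826 (Akt2) and chr11:69942539-69948188 (Slc2a4), and all are protein-coding. The windows shown lie at chr11:7197537-7197786 on the plus strand for Igfbp1, chr1:72824230-72824479 on the plus strand for Igfbp2, chr8:11008930-11009179 on the minus strand for Irs2 and chr1:82291440-82291689 on the minus strand for Irs1. Each held 1 E-box. Igfbp2, Irs2 and Irs1 shared the form CACGTG, 142, 44 and 115 bases before the start, and 6.02% of 32851 mouse promoters of this length held that form. Over the 13 windows of the 7 genes, 3 held CACGTG (those shown), 10 held a CANNTG match and 7 a TTGTTT match. Of Pik3r1, not shown, the first window held 0 matches of these forms. Its second window held 1 CANNTG match, not CACGTG, and 0 TTGTTT matches. The second Igfbp2 window, not shown, held an E-box of another form directly before a TTGTTT match on the opposite strand, 55 bases before its start. A CANNTG match of any form was found in 66.2% of the 32851 mouse promoters. Igfbp1, Irs2 and Irs1 held 1 TTGTTT match each, as did at least 1 place in 18.3% of all promoters, and in Irs2 it followed the E-box directly. A full glucocorticoid response element (GNACA and TGTNC with 3 bases between them) was in none of the 4 windows and in 0.387% of all promoters.

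Levels of the 9 genes were first set side by side in all libraries.

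**Figure D1:**
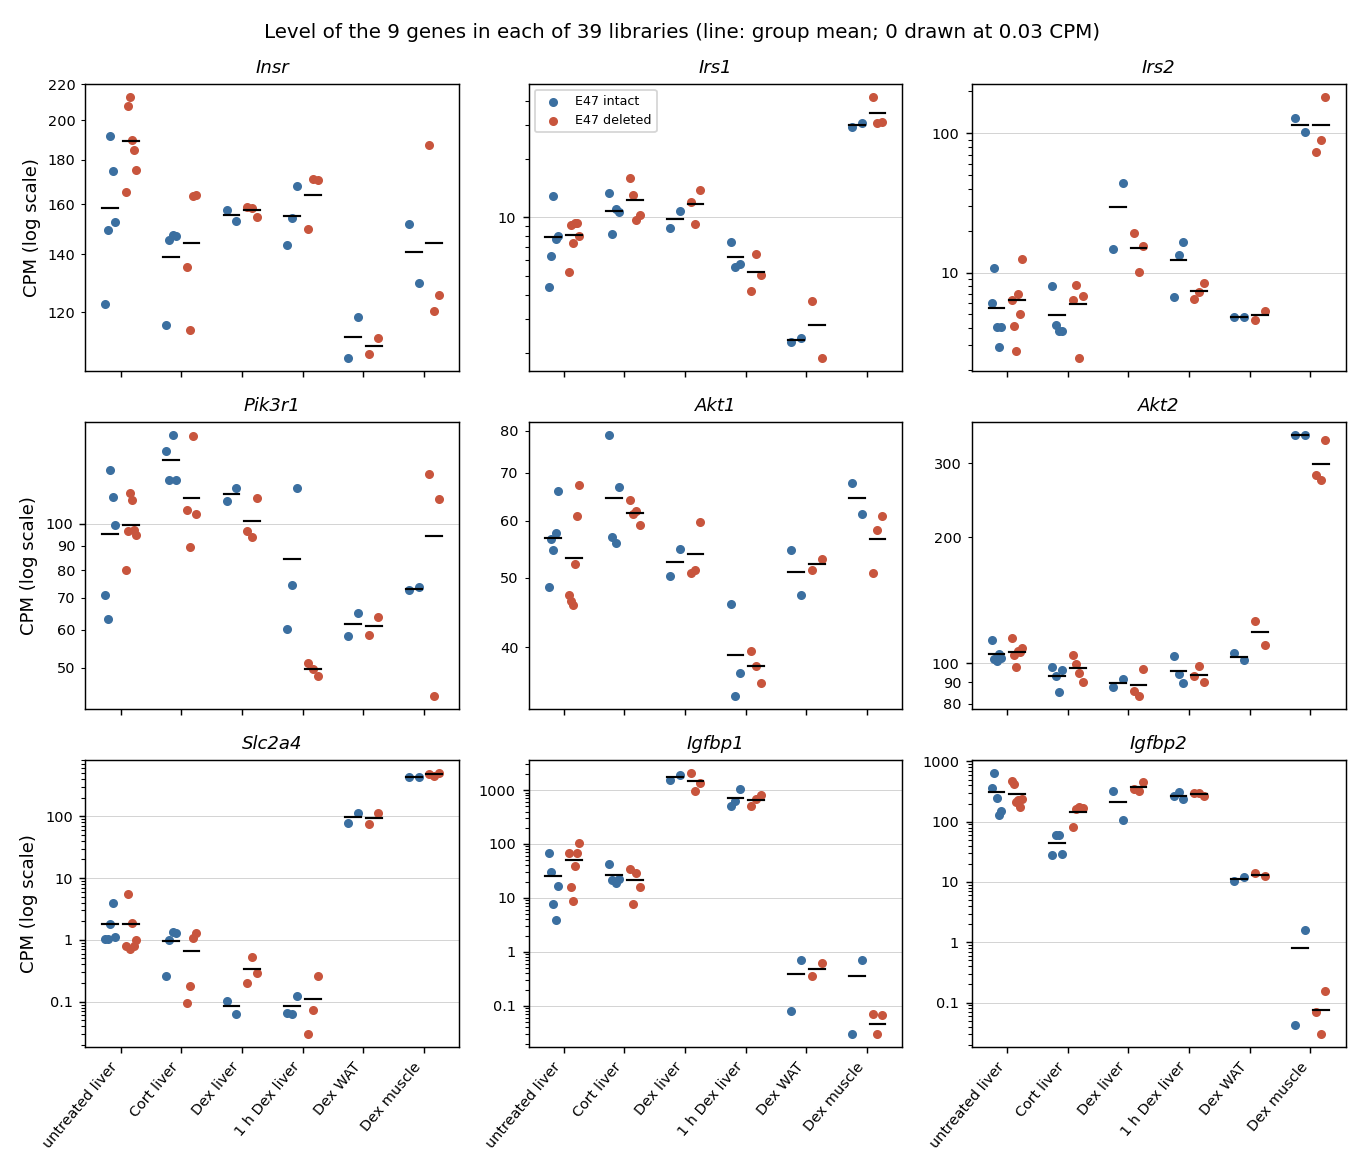
Level of each of the 9 genes in 39 libraries, in CPM on log axes that differ between panels, for 6 experiments; blue points are E47-intact and red points E47-deleted libraries, lines are group means, and libraries with 0 counts are drawn at 0.03 CPM. Igfbp1 sat between 967 and 2072 CPM in Dex livers and between 3.97 and 105 CPM in untreated livers, and Slc2a4 reached 433 to 501 CPM in muscle.

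Igfbp2 in corticosterone-treated livers had the smallest unadjusted p of all members in the genotype comparisons. The 4 WT livers held 27.8, 60.9, 59.7 and 29.3 CPM and the 4 E47KO livers 82.8, 160, 173 and 170 CPM, so every mutant liver lay above every WT liver. The means were 44.4 ± 18.4 and 146 ± 42.6 CPM (SD, n = 4 each). The log2 fold change was 1.71 (SE 0.33), or 3.27-fold, with an unadjusted p of 0.000603 and an adjusted p of 0.19 over 14588 genes in edgeR's quasi-likelihood test, which does not pass 0.05. Among all genes tested there, 2.9% had every mutant library above every control, and 0.0274% passed the test. The call depended on the model: DESeq2, the tool of the study, gave an adjusted p of 3.09e-05 and called 1.69% of all genes, and edgeR with the range of animal numbers in the file names as a covariate gave 0.0312. Within those ranges Igfbp2 was 4.37-fold higher (2 mutants, 1 WT) and 3.42-fold higher (2 mutants, 3 WT). Leaving out any 1 of the 8 livers kept the log2 fold change between 1.54 and 1.90.

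Untreated livers showed no such separation for Igfbp2. WT livers held 365, 644, 247, 128 and 150 CPM, and E47KO livers ranged from 173 to 474 CPM with a median of 236. The log2 fold change between genotypes was -0.08 (SE 0.40), and its sign changed in 4 of 17 alternative settings, which spanned -0.27 to 0.60. WT replicate 2 (644 CPM) had no mutant in its range of animal numbers. In each range that held both genotypes, Igfbp2 was higher in E47KO, by 1.30-fold, 1.68-fold, 1.74-fold and 1.38-fold. Each of those ranges held 1 WT liver and 1 or 2 mutants. The difference of the Cort and untreated genotype effects was 1.80 (SE 0.54) on the log2 scale, with an unadjusted p of 0.00278 and an adjusted p of 0.51 by edgeR over 16227 genes, so it did not pass the threshold. Leaving out any 1 of the 30 livers kept this difference between 1.33 and 1.99. The joint fit held no term for ranges of animal numbers, so the untreated effect in it is not the within-range one. After Dex for 3 weeks the WT livers held 317 and 105 CPM and the E47KO livers 343, 328 and 464 CPM. Within ranges of animal numbers Igfbp2 was 1.06-fold (2 mutants, 1 WT) and 4.40-fold higher (1 mutant, 1 WT). All mutants were above both WT livers (7.2% of all genes did the same), yet WT replicate 1 lay close to the mutants, and the log2 fold change of 0.84 (SE 0.44, unadjusted p = 0.10, adjusted p = 1.0 by edgeR) fell to 0.25 without WT replicate 2. The summed day-phase clock transcripts also separated these livers, at 260.5 to 363 CPM in E47KO and 428 to 449 CPM in WT, and their part in the result was not tested. After 1 h of Dex the controls held 263, 314 and 236 CPM and the AlbCre E47KO livers 304, 302 and 269 CPM, with overlapping groups.

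**Figure D2:**
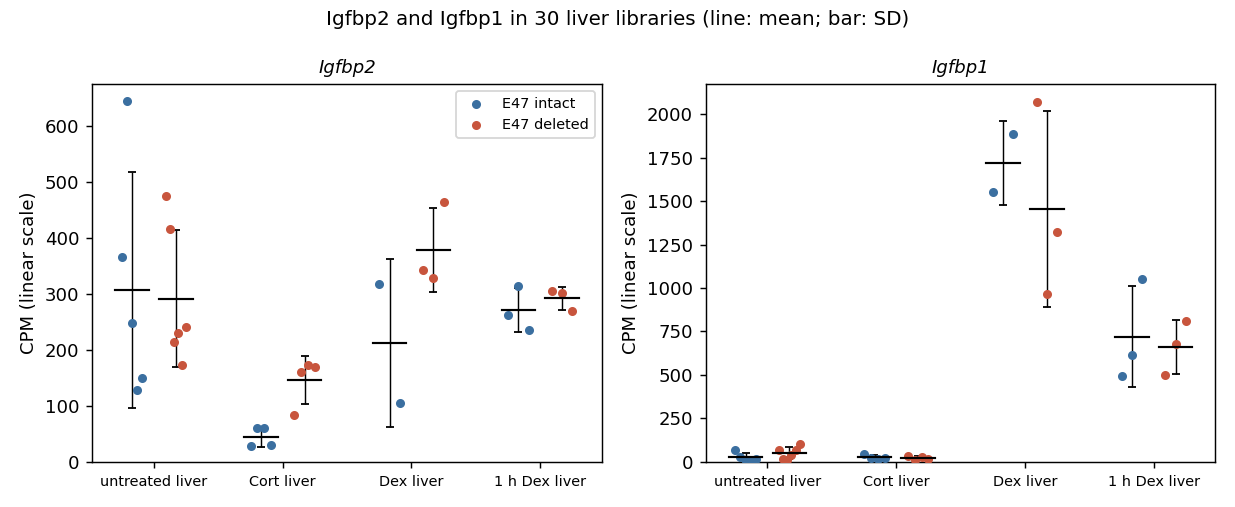
Igfbp2 (left) and Igfbp1 (right) in 30 liver libraries, in CPM on linear axes, by experiment; points are libraries, lines are means and bars are SD. Igfbp2 in Cort livers spans 27.8 to 60.9 CPM in WT and 82.8 to 173 CPM in E47KO, and Igfbp1 is above 495 CPM only in livers that received Dex.

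Against untreated livers of the same genotype, Igfbp2 was lower after Cort in both genotypes, with the larger point estimate in WT livers. It fell by 2.79 (SE 0.43) on the log2 scale in WT (adjusted p = 3.09e-05, edgeR) and by 0.99 (SE 0.39) in E47KO (adjusted p = 0.0445, edgeR). The E47KO value did not pass the threshold without any 1 of the 4 Cort mutants, nor without untreated E47KO replicate 1 or 2 (adjusted p up to 0.15). In Dex livers it was not called in either genotype (log2 fold changes -0.52 in WT and 0.40 in E47KO, the former turning to 0.07 under 1 setting). Hormone, library kit, fasting before the glucose tolerance test, RNA preparation and sequencing run differed together between the liver experiments, and their parts in these level differences cannot be told apart. In the contrasts of 1 h Dex controls with untreated WT livers below, mouse line, floxed allele and injection differed as well. None of the 12 groups was injected without Dex, so these parts cannot be told apart either.

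Igfbp1 was the member with the greatest spread among livers. Dex for 3 weeks went with 1550 and 1888 CPM in WT and with 2072, 967 and 1322 CPM in E47KO, and 1 h of Dex with 496, 614 and 1052 CPM in controls and 501, 679 and 809 CPM in AlbCre E47KO. Untreated WT livers held 68.0, 30.6, 7.73, 3.97 and 16.8 CPM, untreated E47KO livers 8.75 to 105 CPM with a median of 53.9. Cort livers stayed in the untreated range, at 42.4, 21.7, 18.99 and 22.4 CPM in WT and 34.3, 7.85, 28.7 and 15.8 CPM in E47KO. No Dex liver overlapped any untreated or Cort liver.

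The level of Igfbp1 was 68.8-fold higher in Dex than in untreated WT livers (log2 6.11, SE 0.77, adjusted p = 1.27e-06), 28.8-fold higher in Dex than in untreated E47KO livers (log2 4.85, SE 0.65, adjusted p = 2.58e-06) and 28.8-fold higher in 1 h Dex controls than in untreated WT livers (log2 4.85, SE 0.71, adjusted p = 2.79e-05, all by edgeR). After Cort it did not pass the test in either genotype (log2 0.07, SE 0.62, in WT and -1.23, SE 0.62, in E47KO). Between genotypes Igfbp1 overlapped in all 4 liver experiments, and untreated livers gave the largest estimate there (log2 1.01, SE 0.72, unadjusted p = 0.18, adjusted p = 0.97 by edgeR). The log2 estimate was -0.24 in Dex, -0.30 in Cort and -0.11 in 1 h Dex livers, and none passed the test. Within ranges of animal numbers with both genotypes, E47KO over WT was 1.01, 2.08, 6.02 and 5.17 in untreated livers, with 1 WT liver in each. It was 0.496 and 1.06 in Cort livers and 0.981 and 0.700 in Dex livers. The summed day-phase clock transcripts were 66.2 to 136 CPM in 1 h Dex livers and 520 to 840 CPM in untreated livers, with 260.5 to 449 CPM in livers after 3 weeks of Dex, and the part of these differences in the Igfbp1 result was not tested.

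Irs2, a receptor substrate induced in fasted liver, was also higher in livers after 3 weeks of Dex. In E47KO the Dex and untreated groups overlapped, through Dex replicate 2 (10.1 CPM). WT Dex livers held 14.8 and 43.9 CPM, E47KO Dex livers 19.2, 10.1 and 15.5 CPM, untreated WT livers 6.05, 10.7, 4.09, 2.94 and 4.04 CPM, and untreated E47KO livers 2.74 to 12.5 CPM with a median of 5.69. The rise was 5.33-fold in WT (log2 2.41, SE 0.48, adjusted p = 0.00039, edgeR) and 2.398-fold in E47KO (log2 1.26, SE 0.42, adjusted p = 0.0204, edgeR). Both depend on few livers: without WT Dex replicate 2 the WT value was 1.43 (adjusted p = 0.10), and the E47KO value was 1.04 without E47KO Dex replicate 1 (adjusted p = 0.12) and 1.25 without replicate 3 (adjusted p = 0.0505). Cort livers held 7.96, 4.22, 3.78 and 3.83 CPM in WT and 6.39, 8.11, 2.44 and 6.78 CPM in E47KO, which is within the untreated range apart from the lowest mutant. For 1 h Dex controls against untreated WT livers the log2 difference was 1.16, which was not called (adjusted p = 0.069, edgeR).

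Between genotypes, Irs2 in Dex livers was lower in E47KO by the estimate alone (log2 -0.97, SE 0.46, unadjusted p = 0.0733, adjusted p = 1.0 by edgeR), and without WT replicate 2 the value was 0.01. In the 1 h Dex experiment, controls held 6.71, 13.4 and 16.6 CPM and AlbCre E47KO livers 6.41, 7.28 and 8.38 CPM. Control replicate 1, the heterozygous floxed animal, lay within the mutant range, and the log2 fold change of -0.72 (SE 0.31, unadjusted p = 0.0453) had an adjusted p of 1.0 by edgeR. It was -1.02 without control replicate 1 and -0.44 without control replicate 3.

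Pik3r1, whose product p85α couples IRS proteins to PI3K, was the 1 member with separated genotype groups in the acute experiment. The AlbCre E47KO livers held 51.2, 49.7 and 48.0 CPM, and the controls 60.3, 74.4 and 119 CPM. The 3 mutants were close together and the controls were spread, with replicate 3 highest. The log2 fold change was -0.76 (SE 0.23, unadjusted p = 0.00957, adjusted p = 1.0 by edgeR), against 4.64% of all genes with every mutant below every control and 0% past the threshold. Without control replicate 3 it was -0.42. In Cort livers Pik3r1 was 142, 124, 153 and 124 CPM in WT and 107, 89.4, 153 and 105 CPM in E47KO, with overlap through mutant replicate 3 (log2 -0.27, SE 0.16, unadjusted p = 0.12, adjusted p = 0.64 by edgeR). Against untreated WT livers, at 71.0, 63.2, 130, 114 and 99.2 CPM, Cort WT livers were higher by 0.50 (SE 0.19, adjusted p = 0.0404, edgeR), a call that was lost without any 1 of 6 libraries (Cort WT replicates 1, 3 and 4 and untreated WT replicates 1, 2 and 5) and with the strand column (adjusted p = 0.0667).

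Insr, Akt1 and Akt2 spanned narrower ranges within liver. Insr spanned 115 to 213 CPM over 30 livers, and untreated E47KO livers (165 to 213 CPM, median 187) overlapped untreated WT livers (123, 149, 192, 175 and 153 CPM). The log2 fold change there was 0.25 (SE 0.12, unadjusted p = 0.0649, adjusted p = 0.97 by edgeR). Akt2 spanned 83.5 to 115 CPM over the 30 livers, a range of 1.38-fold, and Akt1 spanned 34.2 to 79.0 CPM. Akt1 was lower in 1 h Dex controls (45.9, 34.2 and 36.9 CPM) than in untreated WT livers (48.6, 56.7, 54.6, 57.7 and 65.9 CPM), with a log2 fold change of -0.53 (SE 0.13, adjusted p = 0.00575, edgeR), which became 0.0541 without control replicate 2. Akt2 was lower in Dex than in untreated E47KO livers by 0.24 (log2 -0.24, SE 0.07, adjusted p = 0.0112), and Insr lower in Cort than in untreated E47KO livers (log2 -0.39, SE 0.12, adjusted p = 0.0104, both edgeR). Without E47KO Dex replicate 1 or 2 the Akt2 call was lost (adjusted p up to 0.0734), and without Cort E47KO replicate 2 the Insr call was lost (adjusted p = 0.0639).

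Irs1 was low in liver, at 4.15 to 15.9 CPM. Its counts are an underestimate: 2822 of its 9144 exon bases are shared with Gm9747 on the opposite strand, and in the strand-resolved libraries the strand column held 225% of its unstranded count. Cort E47KO livers (15.9, 12.98, 9.68 and 10.3 CPM) were above untreated E47KO livers (5.25 to 9.37 CPM, median 8.54) by a log2 fold change of 0.60 (SE 0.22, adjusted p = 0.0298, edgeR), a call lost without Cort E47KO replicate 1 or 2 or untreated E47KO replicate 1 or 3 (adjusted p up to 0.14). With the strand column, Irs1 in Dex minus untreated livers turned from 0.32 to -0.85 in WT (adjusted p = 0.00722) and from 0.55 to -0.56 in E47KO (adjusted p = 0.0248, both edgeR). The Dex libraries have only an unstranded column, so that contrast sets unequal counts against each other and no direction is given for Irs1 there.

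Slc2a4 was near the limit of detection in liver, with 0 to 183 counts per library. Dex and 1 h Dex livers had 0 to 11 counts each, and no fold change is given for them. Untreated E47KO replicate 2 (5.52 CPM) and untreated WT replicate 4 (4.00 CPM) were highest, and these libraries also had the most muscle fibre transcripts of all livers (318 and 392 CPM summed over 7 markers, against 1.10 to 99.9 CPM in the other untreated livers). In Cort livers, the 5 libraries with 0.997 to 1.35 CPM of Slc2a4 had 162 to 221 CPM of muscle markers, and the 3 libraries with 0.0937 to 0.257 CPM had 0.858 to 1.12 CPM. The part of muscle RNA in the liver values of Slc2a4 was not tested.

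Across the 6 genotype comparisons, 0 of the tested members passed an adjusted p of 0.05 in edgeR's quasi-likelihood test (8, 9, 8, 9, 9 and 7 members in Dex liver, Cort liver, 1 h Dex liver, untreated liver, WAT and muscle). At an unadjusted p under 0.05 there were 0, 1, 2, 0, 0 and 0 members, beside 3.08%, 9.84%, 3.7%, 3.63%, 4.29% and 3.94% of all genes, and DESeq2 called 1 in Cort liver (Igfbp2) and 0 elsewhere. DESeq2 called 0.136%, 1.69%, 0.0223%, 0.0633%, 0.211% and 0.648% of all genes in the same order. By edgeR, 0.00752%, 0.0274%, 0%, 0.0288%, 0% and 0.0134% of all genes passed the adjusted threshold. Every mutant library lay above every control library for 1, 1, 0, 0, 2 and 2 members (7.2%, 2.9%, 3.86%, 0.194%, 16.9% and 8.57% of all genes) and below for 0, 0, 1, 0, 0 and 2 members (7.78%, 3.46%, 4.64%, 0.252%, 15.7% and 7.04%). The differences of genotype effects between treatments or tissues also had 0 members called (all genes 0.00616% in the 3 liver contrasts and 0% in the 2 tissue contrasts), with 1 member under an unadjusted p of 0.05 for Cort minus untreated (6.89% of all genes), 0 for Dex minus untreated (4.14%) and Dex minus Cort (2.95%), 2 for liver minus muscle (4.6%) and 1 for liver minus WAT (3.27%). Slc2a4, which accounts for 1 in each tissue contrast, rests on 1 to 11 liver counts. Igfbp2 in liver minus muscle (4.17 on the log2 scale) fell to 0.06 without muscle WT replicate 2, the library with hepatocyte transcripts.

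**Figure D3:**
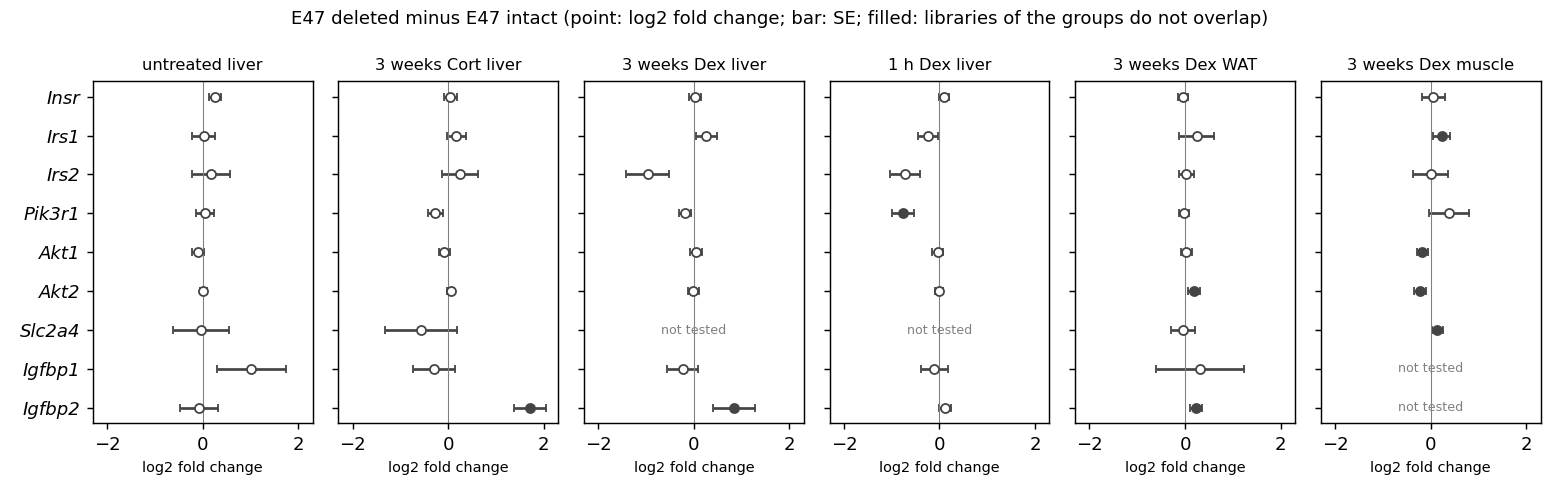
Log2 fold change of E47-deleted over E47-intact libraries (points) with its SE (bars) for the 9 genes in 6 comparisons; filled points mark genes whose libraries do not overlap between the groups. Igfbp2 in Cort liver lies at 1.71 and Pik3r1 in 1 h Dex liver at -0.76; no member passed an adjusted p of 0.05 by edgeR.

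In WAT and muscle no member passed the genotype test. The largest estimates were Pik3r1 in muscle (log2 0.39, SE 0.42), at 127, 43.7 and 112 CPM in E47KO and 72.7 and 73.8 CPM in WT, and Igfbp1 in WAT (log2 0.32, SE 0.92), at 5 to 43 counts per library. In WAT, Igfbp2 was 13.96 and 12.5 CPM in E47KO and 10.48 and 11.9 CPM in WT (log2 0.23, SE 0.12), and Akt2 was 126 and 110.6 CPM in E47KO and 106 and 102 CPM in WT (log2 0.18, SE 0.12, and 0.08 without E47KO replicate 2). Both were separated, as were 16.9% of all genes in that direction, and neither passed the test (adjusted p = 0.98 each, edgeR). In muscle, Akt2 was 282, 273 and 342 CPM in E47KO and 351 and 350 CPM in WT (log2 -0.22, SE 0.13), Akt1 gave -0.18 (SE 0.11), and Slc2a4 was 478, 450 and 501 CPM in E47KO and 438 and 433 CPM in WT. These 3 genes, and Irs1 with 30.7 to 41.9 CPM in E47KO against 29.3 and 30.6 CPM in WT, had separated groups (8.57% of all genes above and 7.04% below). The adjusted p of every member was 1.0 by edgeR. With 2 libraries in a group, these comparisons can show only large differences.

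Slc2a4 was 433 to 501 CPM in muscle, 76.0 to 115 CPM in WAT and 0.0640 to 0.525 CPM in liver, and was 5.06-fold higher in muscle than in WAT (log2 2.34, SE 0.17, adjusted p = 8.13e-08, edgeR). Igfbp1 was in liver only at a substantial level, with 0.0818 to 0.699 CPM in WAT and 0 to 3 counts in each muscle apart from WT replicate 2 (28 counts). Igfbp2 was 105 to 464 CPM in liver and 10.48 to 13.96 CPM in WAT, 22.4-fold higher in liver (log2 4.49, SE 0.52, adjusted p = 6.47e-06, edgeR), and 0 to 7 counts in each muscle apart from WT replicate 2 (63 counts).

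The receptor substrates were highest in muscle. Irs2 was 73.7 to 183 CPM in muscle, 10.1 to 43.9 CPM in liver and 4.57 to 5.28 CPM in WAT, and Irs1 29.3 to 41.9, 8.76 to 13.9 and 1.89 to 3.69 CPM. Muscle exceeded WAT 25.0-fold for Irs2 (log2 4.64, SE 0.38) and 13.2-fold for Irs1 (log2 3.72, SE 0.21), and exceeded liver 6.05-fold and 3.28-fold (adjusted p of these 4 contrasts 7.68e-09 to 1.09e-05, edgeR). Akt2 was 3.96-fold higher in muscle than in liver (log2 difference, liver minus muscle, -1.99, SE 0.10, adjusted p = 1.88e-09), whereas Akt1 differed by -0.31 (SE 0.08, adjusted p = 0.00499, both edgeR). Insr and Pik3r1 did not pass the test between liver and muscle (0.01, SE 0.13, and 0.25, SE 0.22) and were higher in liver than in WAT by 0.44 (SE 0.13) and 0.76 (SE 0.24). In all, 7 of 9 members passed in liver against muscle, 8 in liver against WAT and 7 in muscle against WAT, beside 76.4%, 75.4% and 77.3% of all genes, whose median log2 differences were -0.11, -0.19 and -0.25. The Akt1 call between liver and muscle was lost when only the 3 mice with both tissues were used, with mouse as a block (adjusted p = 0.0513).

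Compared per length within a tissue (CPM per kilobase of exon), Dex livers held 1023 for Igfbp1 and 169 for Igfbp2, and 10.6 to 13.02 for Pik3r1, Insr, Akt2 and Akt1. Irs2 came to 3.27 and Irs1 to 1.197, the latter an underestimate. In muscle the same scale gave 132 for Slc2a4, 44.9 for Akt2, 18.3 for Irs2, 14.6 for Akt1, 10.4 for Insr, 8.52 for Pik3r1 and 3.58 for Irs1. In WAT, Slc2a4 at 27.2, Akt2 at 15.6 and Akt1 at 12.6 led, and Irs2 at 0.769 and Irs1 at 0.280 were lowest beside Igfbp1.

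Ordered over the 12 group means, Insr had overlapping library ranges at every step, from untreated E47KO liver (189 CPM) down to Dex WAT E47KO (110 CPM). Akt1 overlapped at all steps but the step from Dex WAT WT (50.9 CPM) to the 1 h Dex controls (39.03 CPM). Igfbp1 fell into 3 tiers without overlap between them, namely the 4 Dex-exposed liver groups (means 663 to 1719 CPM), the untreated and Cort livers (21.6 to 51.1 CPM) and the non-liver tissues (under 0.5 CPM). Igfbp2 separated at the steps from Cort E47KO liver (146 CPM) to Cort WT liver (44.4 CPM), then to Dex WAT E47KO (13.2 CPM), Dex WAT WT (11.2 CPM) and the muscles (under 1 CPM). Irs2 separated only below the muscle groups (116 CPM each), and Pik3r1 was lowest in 1 h Dex AlbCre E47KO livers (49.6 CPM).

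Over the treatment contrasts in liver, 2 members passed in WT after Cort (1 higher, 1 lower), 3 in E47KO after Cort (1 higher, 2 lower), 3 in WT after Dex (2 higher, 1 lower), 4 in E47KO after Dex (2 higher, 2 lower) and 3 after 1 h of Dex (1 higher, 2 lower). Among all genes 33.2%, 38.9%, 31.9%, 37.8% and 20.4% passed in the same contrasts, of 9 members tested in each. Slc2a4, at 1 to 11 counts in the treated livers, is among the members lower after Dex in both genotypes and after 1 h of Dex.

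**Figure D4:**
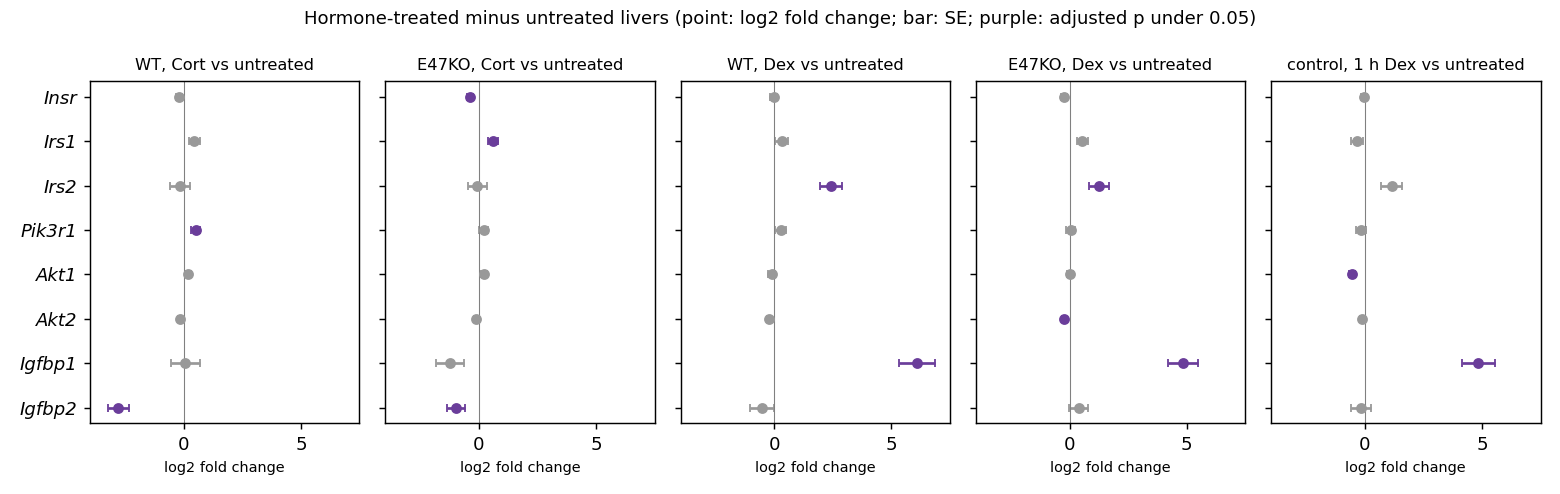
Log2 fold change of hormone-treated over untreated livers (points) with its SE (bars) for 8 genes in 5 contrasts; purple points passed an adjusted p of 0.05 and Slc2a4 is left out for its low counts. Igfbp1 lies at 6.11, 4.85 and 4.85 in the 3 Dex contrasts and Igfbp2 at -2.79 in WT livers after Cort. The Irs1 points rest on unstranded counts, and those after 3 weeks of Dex are not read as a direction.

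Of 71 other genes of the pathway (receptors and adaptors, PI3K, Akt and mTOR kinases and their brakes, insulin-responsive effectors, IGF ligands and binding proteins, and glucose transporters), 64 to 70 were tested per genotype comparison and 0 passed in either direction by edgeR. Of all genes 0% to 0.0288% passed, so a count of 0 does not set this list apart. At an unadjusted p under 0.05 by edgeR, 2, 1, 3, 3, 2 and 4 were higher and 1, 4, 1, 1, 1 and 1 lower. These are in Dex liver, Cort liver, 1 h Dex liver, untreated liver, WAT and muscle, beside 3.08%, 9.84%, 3.7%, 3.63%, 4.29% and 3.94% of all genes. Their median log2 fold changes lay between -0.03 and 0.07, beside all-gene medians of -0.01 to 0.02. The genes with the smallest unadjusted p were Igfbp5, Igfbp6 and Trib1 in Dex liver, Igf2r, Mtor and Igfals in Cort liver, Cblb, Srebf1 and Grb2 in 1 h Dex liver, Enpp1, Igfals and Tsc1 in untreated liver, Igfbp5, Socs3 and Tsc1 in WAT, and Pde3b, Igfbp4 and Pck1 in muscle. In Cort liver, Igf2r, the IGF2 scavenger receptor, averaged 61.5 ± 2.06 CPM in E47KO and 77.6 ± 9.99 CPM in WT (n = 4 each) with separated groups (log2 -0.35, adjusted p = 0.28 by edgeR). Igfals, which holds IGFs in the circulating complex, was higher by estimate in Cort E47KO (log2 0.30) and lower in untreated E47KO livers (log2 -0.30), with adjusted p = 0.39 and 0.97 by edgeR. In muscle, Pde3b, a phosphodiesterase of insulin action in fat, averaged 16.1 CPM in E47KO and 3.58 CPM in WT (log2 2.21, SE 0.29, adjusted p = 0.34 by edgeR), and Pck1 132.5 and 28.5 CPM (log2 2.25). Adipocyte markers summed to 532 to 661 CPM in the E47KO muscles and 163 to 264 CPM in the WT muscles, with all 7 markers higher by estimate, and their part in these values was not tested.

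Over the 8 liver group means of log2 CPM, the non-member genes most like each member were Rnf13 and Pdxdc1 for Insr (Pearson r of 0.972 and 0.965), Atg16l1 and Tab1 for Irs1 (0.989 and 0.986), Mfsd14a and Smndc1 for Irs2 (0.985 and 0.977), Usp1 and 4931406P16Rik for Igfbp1 (0.994 and 0.993), Rasgrp3 and Npm1 for Igfbp2 (0.969 and 0.953), Coro7 and Extl1 for Pik3r1 (0.974 and 0.970), Jak3 and Bcorl1 for Akt1 (0.994 and 0.992) and Gm15318 and Fam47e for Akt2 (0.993 and 0.988). Slc2a4 was left out for its low liver level. Group means share libraries and preparation, and of 11993 genes compared, 4 had r over 0.95 with Igfbp2 and 179 with Akt1.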

How the data were processed

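Male mouse liver, WAT and muscle RNA was sequenced by the authors (Dex tissues unstranded, other livers labelled stranded). The deposited counts per gene are raw, made by the authors on mm10; the processing notes name STAR 2.4.2a, HTSeq and DESeq2. The authors' own tables of fold changes and p-values were not used.

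The unstranded count column was taken for all 39 libraries, since the Cort libraries, labelled stranded, had at most 50.1% of strand counts in the larger strand column. Entries naming no gene (20.8% to 36.8%) were left out. R 4.3.3 was used with edgeR 4.0.16 (TMM, filterByExpr, quasi-likelihood, two-sided, Benjamini-Hochberg over all genes, threshold 0.05). Each genotype comparison used its own libraries, and treatment and tissue contrasts used joint fits over 30 livers and 14 Dex libraries. Scripts were tested on simulated data. Alternatives were RLE factors, no low-count filter, DESeq2 1.42.0, the larger strand column, replicate or mouse blocks, ranges of animal numbers in file names as a covariate, and leaving out each library. 3 mice gave both liver and muscle, paired by animal number and replicate. The joint tissue fit held no term for mouse. No replicate pair agreed within sampling noise. P-values set each difference against the spread between these libraries. The 9 members, the gene lists and the promoter motifs were chosen with earlier results of these data known. Named genes were the members, the pathway genes with the 3 smallest unadjusted p per genotype comparison when none passed, the 2 genes most like each member, and Tcf3. CPM in the text use TMM factors over all libraries.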

Additional observations from a re-analysis of the deposited data

Results flagged for a closer look

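In groups of 4 to 10 libraries, 36 pairs of member and group were searched for a library far from the others by Dixon's criterion, and 6 were found. The criterion flags about 1 of 20 sets of independent, normally distributed values. The pairs share libraries and the CPM were not checked for that distribution, so the rate does not apply directly. Cort WT liver replicate 1 stood apart in 3 members: Insr (116 CPM, next 145), Irs2 (7.96 CPM, next 4.22) and Igfbp1 (42.4 CPM, next 22.4). It was the only WT liver in its range of animal numbers. Cort E47KO liver replicate 1 was low in Igfbp2 (82.8 CPM, next 160) and still above every WT liver. Slc2a4 was high in untreated E47KO liver replicate 2 (5.52 CPM, next 1.86) and untreated WT liver replicate 4 (4.00 CPM, next 1.82), the livers with the most muscle fibre transcripts.

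Akt2 was separated in opposite directions in tissues of the Dex experiment, without passing the test in either: every E47KO library was above every WT library in WAT (log2 fold change 0.18, or 0.08 without E47KO replicate 2) and below in muscle (-0.22). Of all genes, 16.9% were separated upward in WAT and 7.04% downward in muscle. The difference between WAT and muscle was not tested.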

How the results depend on the processing

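The count of members called was recomputed in 19 comparisons (436 recomputations, 420 within 1.5 times). The plan covered every member's fold change. After a first table of all of them had been seen, the single values followed here were limited to 53, namely genotype differences with an unadjusted p under 0.2, differences of effects with p under 0.05 and level contrasts past the threshold; of their 1132 recomputations 1097 kept direction and side of the threshold, 31 lost and 3 gained the call and 1 reversed. The 114 values left out were refitted 2751 times: 57 of them changed sign in at least 1 setting, 156 times in all, and 24 refits passed the threshold. Of those sign changes 2 passed it, Irs1 with the strand column in Dex minus untreated livers (-0.85 in WT, -0.56 in E47KO), which follows from the missing strand column of the Dex libraries. In Cort liver the genotype count of 0 became 1 (Igfbp2) with DESeq2, with the replicate block and with the ranges of animal numbers; the cause was not tested. With the replicate block, WT Dex minus untreated had 5 members instead of 3 and E47KO Cort minus untreated 4 instead of 3, where Akt1 and Slc2a4 gained and Irs1 lost the call (adjusted p = 0.0517); all other block counts were as reported, apart from liver minus muscle by mouse (6 instead of 7). Same-numbered libraries did not all correlate above 0.1, nor did every library correlate best with its own number, so the numbers are not taken to pair samples. In WAT, no paired analysis was possible because the groups share 1 number. With 1 library left out, counts ranged from 1 to 3 (WT Cort minus untreated), 0 to 3 (E47KO Cort), 1 to 3 (WT Dex) and 1 to 5 (E47KO Dex). Irs2 between genotypes in Dex liver, -0.97, ranged from -1.55 to 0.0131, the latter without WT replicate 2. Over all genes, edgeR called 1, 4, 0, 4, 0 and 2 in Dex liver, Cort liver, 1 h Dex liver, untreated liver, WAT and muscle; DESeq2 called 21, 258, 4, 16, 38 and 90, and edgeR without the low-count filter 62, 13, 1, 8, 6 and 37; the cause was not tested. In Cort liver the block gave 29 and the ranges of animal numbers 67. Irs1 and Irs2 had 59 to 681 and 91 to 686 counts per liver library, which limits their precision.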
